A study of Rattus norvegicus with 20 samples.

Results

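The renin-angiotensin system was followed through 8 of its genes in rat kidney after experimental trauma: Agt, Ace, Agtr1a, Agtr1b, Mme, Enpep, Atp6ap2 and Mas1. The members were taken by gene symbol from a table of 34681 rows, each symbol matched 1 row, and all 8 passed the filter on low values that left 15954 rows to test. RNA came from frozen kidneys, and 20 libraries carried the labels Sham (6 libraries), RM (6), HS (5) and RM-HS (3, both labels joined). The labels do not spell out RM or HS and give no strain, sex or age, and the series concerns trauma-induced acute kidney injury. Whether libraries stem from separate animals is not stated, so the p-values describe the spread among these libraries, part of which may be technical.

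The system is a proteolytic cascade with opposing arms. A first cut of angiotensinogen releases a short peptide, and angiotensin-converting enzyme makes angiotensin II from it. Angiotensin II acts on the type 1 receptor, which constricts vessels and raises sodium reabsorption. Peptidases of the proximal tubule brush border remove or convert the peptides, and neprilysin can yield a shorter peptide that acts on the receptor Mas. Rodents carry a pair of type 1 receptor genes, Agtr1a and Agtr1b, where most mammals carry a single one.

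Of the 8 genes, Agtr1b showed the largest fold change, and it fell in all 3 injury groups. Each of these 3 calls was lost in at least 1 other fit. The mean normalized count of Agtr1b was 137 ± 68.0 (SD, n = 6) in Sham, 32.4 ± 18.4 (n = 6) in RM, 48.9 ± 17.1 (n = 5) in HS and 36.6 ± 17.6 (n = 3) in RM-HS. The other type 1 receptor gene, Agtr1a, did not fall in any comparison with Sham. It rose in RM-HS against all Sham libraries (0.92 on the log2 scale), but this call was lost against Sham 1 and 6 alone (0.26), the pair of Sham libraries most like the injured ones in proximal tubule and podocyte markers, and without RM-HS 1 or RM-HS 3. Enpep rose in RM and HS, Atp6ap2 rose in RM, and Agt fell in HS, and each of these calls was lost under some of the other fits. Ace, Mme and Mas1 passed the test in no comparison in the main fit, though Mme and Mas1 in RM-HS passed under some of the other fits.

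The promoters of Agtr1a and Agtr1b are shown first, because this pair of genes encodes 2 forms of the same receptor and their ratio differed between Sham and every injury group. Of the 8 members, 7 had an entry in the RefSeq promoter table of build GRCr8. The 250 bases before each start site are printed 5′ to 3′ on the gene's strand, with 3 motifs searched on both strands in capitals: the TATA box core TATAAA, the GC box GGGCGG and the CCAAT box.
Agtr1a, chr17:34435433-34435682, minus strand: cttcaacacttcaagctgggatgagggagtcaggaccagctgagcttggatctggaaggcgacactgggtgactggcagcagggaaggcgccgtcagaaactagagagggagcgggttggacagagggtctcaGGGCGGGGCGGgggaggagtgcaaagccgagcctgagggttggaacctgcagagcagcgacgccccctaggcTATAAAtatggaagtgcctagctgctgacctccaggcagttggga
Agtr1b, chr2:104849263-104849512, minus strand: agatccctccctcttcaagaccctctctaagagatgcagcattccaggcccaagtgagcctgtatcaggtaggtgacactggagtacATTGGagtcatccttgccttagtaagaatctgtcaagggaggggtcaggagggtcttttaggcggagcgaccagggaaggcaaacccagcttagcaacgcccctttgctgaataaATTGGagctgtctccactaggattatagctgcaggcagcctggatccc
The Agtr1a sequence held TATAAA at -45 and GGGCGG at -117 and -112, counted from the start site to the leftmost base of the motif, with the 2 GC boxes sharing a base. The Agtr1b sequence held CCAAT on the opposite strand, read as ATTGG, at -163 and -48. In windows of 300 bases that also include 50 bases after the start site, 14.2% of the 33469 promoters in that table held TATAAA, 33.1% held GGGCGG and 37.5% held CCAAT. Neither CCAAT in Agtr1a nor TATAAA or GGGCGG in Agtr1b was found in those windows. A match is a string of letters, and binding was not measured here.

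Values are DESeq2-normalized read counts as deposited, and changes are log2 fold changes ± SE on log2(value + 1), which understates the change of low genes such as Agtr1b and Mas1. The threshold was an adjusted p of 0.05 (Benjamini-Hochberg over all 15954 rows), from limma in 1 fit of the 4 groups, and genes are said to have risen or fallen only where they passed. The libraries held 45047179 to 109940948 recovered counts, of which 42.2% to 54.7% lay on 14 mitochondrial rows. The Sham libraries were uneven in tissue content. The mean log2 level of 10 early proximal tubule markers was 13.99 in Sham 1, 13.95 in Sham 6 and 13.9 to 14.8 across all RM, HS and RM-HS libraries, but 10.3, 11.6, 11.3 and 10.8 in Sham 2, 3, 4 and 5. The podocyte marker mean was 9.87 and 9.94 in Sham 1 and 6, 7.86 to 9.22 in Sham 2 to 5, and 9.64 to 10.2 in the injured libraries. Sham 1 and 6 were therefore used as a second set of controls, closer to the injured libraries in these cortical markers. The match was partial, since 3 of the 10 early proximal tubule markers still passed as higher in RM against them, 1 in HS and 4 in RM-HS. Sham 1 and 6 were not matched for collecting duct principal cell markers, whose mean was 10.6 in both against 8.64 to 10.3 in the injured libraries. Library names begin with R or S, which no label explains. All Sham and RM-HS libraries are named R, and 5 of 6 RM libraries and 2 of 5 HS libraries are named S. This letter was used as a covariate, and libraries named R were also fitted alone, with 1 RM library. In bulk tissue, fewer cells of a type and less RNA per cell cannot be told apart.

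Against all 6 Sham libraries, 3 of the 8 genes passed in RM, 2 higher and 1 lower, where 53% of all tested rows passed (26.2% higher and 26.8% lower). In HS 3 passed, 1 higher and 2 lower, against 46.4% of rows (23.3% higher and 23.2% lower). In RM-HS 2 passed, 1 in each direction, against 42.3% of rows (21.3% higher and 21% lower). With only 8 members, these counts are not read as differing from the share of all rows. Of the rows that passed, 49.4%, 50.1% and 50.3% were higher in RM, HS and RM-HS. Upper quartile scaling moved the median of all rows by -0.14, -0.12 and -0.13 and those shares to 37%, 38.5% and 36.9%. With Sham 1 and 6 as the only controls, 2 members passed in RM (32.9% of rows), 1 in HS (25.7%) and 1 in RM-HS (27.2%). The median log2 fold change of the 8 genes against all 6 Sham libraries was 0.18 in RM, 0.07 in HS and 0.13 in RM-HS, beside -0.04, -0.03 and -0.03 over all rows. Against Sham 1 and 6 alone it was -0.18, -0.24 and 0.20, beside -0.03, -0.01 and -0.02, so its sign turned in RM and HS. Libraries of the injury group and Sham did not overlap for 0 of 8 genes in RM (25.7% of rows), 0 in HS (25.9%) and 1, Agtr1b, in RM-HS (32.5%).

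**Figure D1:**
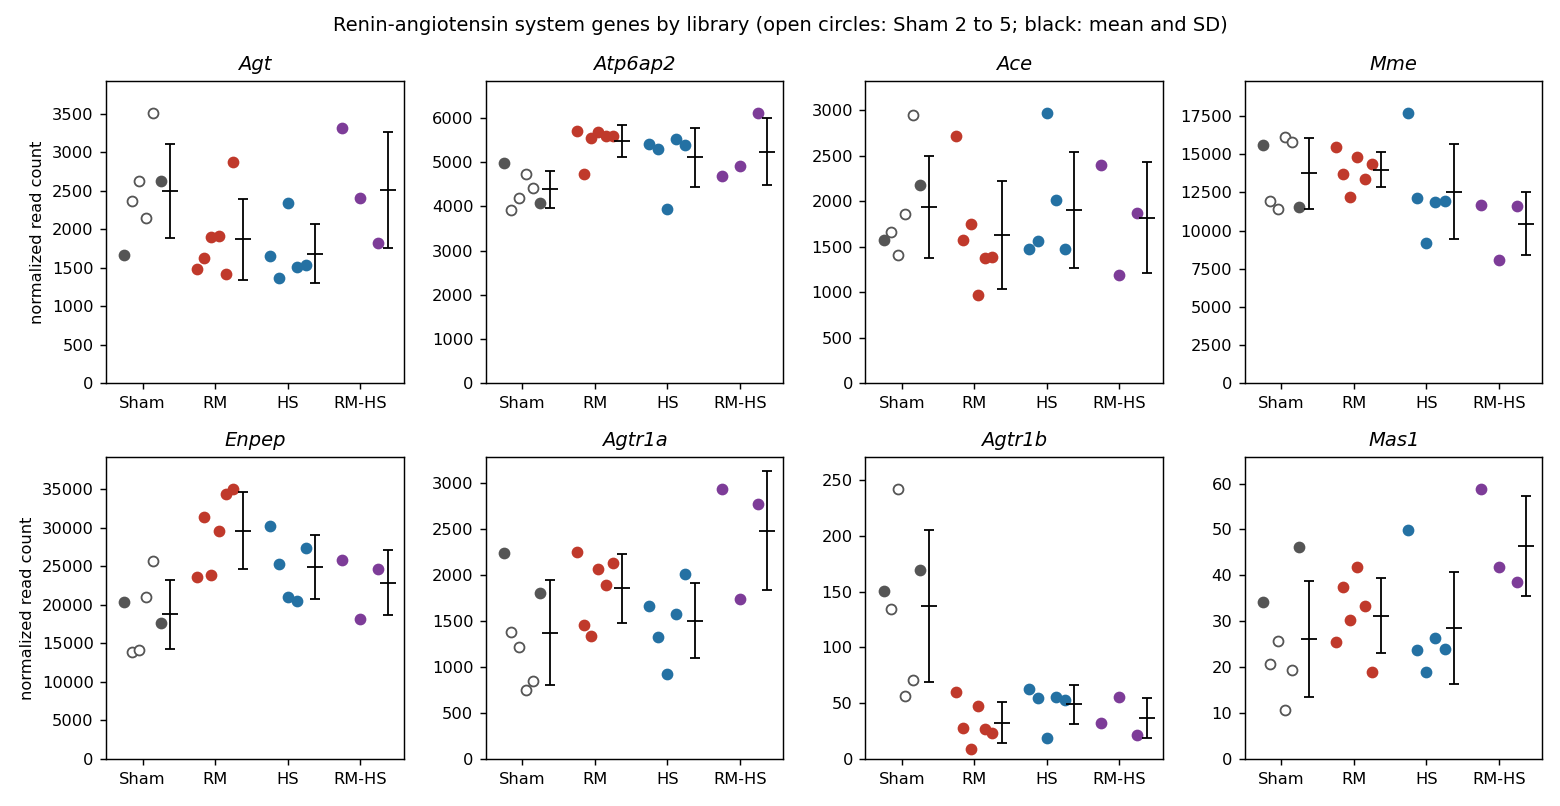
Normalized read count of each of the 8 genes (vertical axes, each from 0) in every library of the 4 groups (horizontal axes); open circles are Sham 2 to 5, filled circles all other libraries, black marks the group mean and SD. Agtr1b lay at 62.3 or less in every injured library and at 56.5 or more in every Sham library, while Ace spread widely within each group.

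The substrate of the cascade is encoded by Agt (GSRG0015030, rn6 chr19:57321633-57333433), a gene expressed mainly in liver and also in the proximal tubule. In Sham its normalized count ran from 1671 (Sham 1) through a median of 2498 to 3504 (Sham 5). In RM it ran from 1422 through 1763 to 2870 (RM 6). The 5 HS libraries had 1656, 1363, 2344, 1514 and 1535, and the 3 RM-HS libraries had 3313, 2402 and 1821. The HS values other than HS 3 were below every Sham value, and HS 3 lay inside the Sham range, as did all RM-HS libraries. Agt fell in HS, with a log2 change of -0.56 ± 0.20 (limma adjusted p = 0.027). The RM difference was -0.42 ± 0.19 (adjusted p = 0.067) and that of RM-HS 0.00 ± 0.23 (adjusted p = 0.99), with a 95% interval of -0.48 to 0.49. In RM it passed as lower under upper quartile scaling (-0.56, limma adjusted p = 0.015). The RM difference also passed without Sham 1 (-0.53, adjusted p = 0.022) or RM 6 (-0.55, adjusted p = 0.014). Against Sham 1 and 6 the HS difference was -0.34 ± 0.27 (adjusted p = 0.37), and the call in HS was also lost without Sham 5 (-0.45, adjusted p = 0.069) and without any 1 of HS 2, HS 4 and HS 5 (-0.53 to -0.49). It was lost too with the name letter (-0.57, adjusted p = 0.053) or the early proximal tubule marker mean (-0.30, adjusted p = 0.43) as a covariate, or in a fit of libraries named R (-0.48, adjusted p = 0.14). Of the 6 liver markers measured, 3 rose in each injury group, and their summed count was 1174 to 14117 in Sham and 8715 to 138272 in the injured libraries. Their part in the Agt values was not tested.

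A membrane protein counted with the system is encoded by Atp6ap2 (GSRG0034514, rn6 chrX:11137040-11164854), which is also an accessory subunit of the vacuolar proton pump. Its levels were even across libraries, from 3912 through a median of 4301 to 4987 in Sham and from 4742 through 5586 to 5707 in RM. In HS they were 5416, 5301, 3933, 5517 and 5392, and in RM-HS 4693, 4917 and 6104. All RM libraries but RM 2, and all HS libraries but HS 3, exceeded the highest Sham value. Atp6ap2 rose in RM by 0.32 ± 0.09 (adjusted p = 0.0058), a fold of 1.25. The differences in HS (0.22 ± 0.10, adjusted p = 0.072) and RM-HS (0.25 ± 0.11, adjusted p = 0.076) had the same sign and did not pass. The HS difference passed with trimmed mean of M values scaling (0.25, limma adjusted p = 0.041), array weights (0.25, limma adjusted p = 0.018) and edgeR (0.25, edgeR adjusted p = 0.042). It also passed without Sham 1 (0.25) or HS 3 (0.31), as did that of RM-HS (0.29 and 0.25). Without HS 3 the RM-HS change itself was the same, since HS libraries enter it only through the spread shared by the 4 groups. With Sham 1 and 6 alone the RM difference was 0.28 ± 0.14 (adjusted p = 0.13). It also missed the threshold under upper quartile scaling (0.18, adjusted p = 0.10), with the name letter (0.26, adjusted p = 0.14) or the early proximal tubule marker mean (0.20, adjusted p = 0.26) as a covariate, and for the libraries named R (0.39, adjusted p = 0.29).

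Angiotensin-converting enzyme is encoded by Ace (GSRG0006019, rn6 chr10:94170766-94187822), found on endothelium and on the proximal tubule brush border. In Sham its count ran from 1410 through 1764 to 2950 and in RM from 964 through 1485 to 2720. The HS libraries had 1480, 1565, 2964, 2016 and 1473 and the RM-HS libraries 2402, 1187 and 1870. Every group spanned much the same range. The log2 difference from Sham was -0.28 ± 0.24 in RM (95% interval -0.77 to 0.21), -0.04 ± 0.25 in HS (-0.56 to 0.47) and -0.11 ± 0.29 in RM-HS (-0.71 to 0.50). Each of the 3 differences changed sign under at least 1 other way of fitting, and no direction is read for Ace.

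Neprilysin, encoded by Mme (GSRG0015396, rn6 chr2:153799585-153880909), is an abundant brush border endopeptidase that cleaves angiotensins, natriuretic peptides and bradykinin. In Sham its count ran from 11387 through 13769 to 16121, and in RM from 12216 through 14042 to 15450. In HS it was 17668, 12159, 9171, 11844 and 11923. In RM-HS it was 11652, 8070 and 11625, below every RM library. The RM-HS difference was -0.40 ± 0.17 from Sham (adjusted p = 0.063) and -0.44 ± 0.17 from RM (adjusted p = 0.20), neither of which passed. The difference from Sham passed as lower under upper quartile scaling (-0.53, limma adjusted p = 0.015). It also passed without Sham 3 (-0.45) or Sham 6 (-0.44). Without HS 1 or HS 3 it passed with the change still at -0.40. HS libraries enter this comparison only through the spread shared by the 4 groups. In RM the difference from Sham was 0.04 ± 0.14 and in HS -0.15 ± 0.14.

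Aminopeptidase A, encoded by Enpep (GSRG0016682, rn6 chr2:233667254-233743866), sits on podocytes and the proximal tubule brush border and trims angiotensin II to angiotensin III. Its count ran from 13901 (Sham 2) through 18951 to 25639 (Sham 5) in Sham and from 23613 through 30494 to 35007 in RM. The HS libraries had 30226, 25325, 20959, 20488 and 27306 and the RM-HS libraries 25857, 18111 and 24679. Sham 5 alone kept the RM and Sham ranges from being apart, while both HS and RM-HS overlapped the Sham range. Enpep rose by 0.67 ± 0.15 in RM (adjusted p = 0.0011), a fold of 1.60, and by 0.42 ± 0.16 in HS (adjusted p = 0.038), a fold of 1.34. In RM-HS the difference was 0.30 ± 0.19 (adjusted p = 0.21). Against Sham 1 and 6, which stood at 20333 and 17570, Enpep rose in RM by 0.63 ± 0.19 (adjusted p = 0.016), and the HS difference was 0.38 ± 0.19 (adjusted p = 0.15). With the early proximal tubule marker mean as a covariate the RM value was 0.51 ± 0.23 (adjusted p = 0.096). The RM call was also lost with the name letter as a covariate (0.59, adjusted p = 0.054) and in the libraries named R (0.37, adjusted p = 0.54). The HS call was lost on leaving out any 1 of 6 libraries (0.34 to 0.41), with upper quartile scaling (0.30), in a fit of HS and Sham alone (0.42, adjusted p = 0.056), with either covariate (0.38 and 0.27) and among libraries named R (0.46).

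The type 1 receptor gene Agtr1a (GSRG0013329, rn6 chr17:35907108-35958092) encodes the main receptor of angiotensin II in the rodent kidney. In Sham its counts separated by library, with 2242 in Sham 1, 1811 in Sham 6, and 1382, 1214, 747 and 844 in Sham 2, 3, 4 and 5. In RM they ran from 1337 through 1982 to 2250. In HS they were 1668, 1327, 922, 1582 and 2019, and in RM-HS 2939, 1741 and 2773. RM-HS 1 and RM-HS 3 exceeded every other library, and the other injured libraries fell within the Sham range or, for RM 1, just above it. Against all Sham libraries Agtr1a rose in RM-HS by 0.92 ± 0.30 (adjusted p = 0.017), a fold of 1.90, and the differences in RM (0.52 ± 0.24, adjusted p = 0.081) and HS (0.19 ± 0.25, adjusted p = 0.57) did not pass. Against Sham 1 and 6 alone the RM-HS difference was 0.26 ± 0.30 (adjusted p = 0.53), and the RM and HS differences turned to -0.14 ± 0.26 and -0.47 ± 0.27. With the early proximal tubule marker mean as a covariate the RM-HS value was 0.06 ± 0.32 (adjusted p = 0.91). Array weights (0.69, adjusted p = 0.0088) and leaving out Sham 1 (0.68, adjusted p = 0.018) or Sham 6 (0.62, adjusted p = 0.045) put the RM difference past the threshold, while the tubule covariate turned it to -0.31, so no direction is read for Agtr1a in RM. The RM-HS call was also lost without RM-HS 1 (0.78, adjusted p = 0.091) or without RM-HS 3 (0.83, adjusted p = 0.073). The level of Agtr1a moved with the early proximal tubule marker mean over the 20 libraries (Pearson r = 0.69, Spearman rho = 0.74), as the 2 share library and group, and the part of that content in the rise was not tested further.

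**Figure D2:**
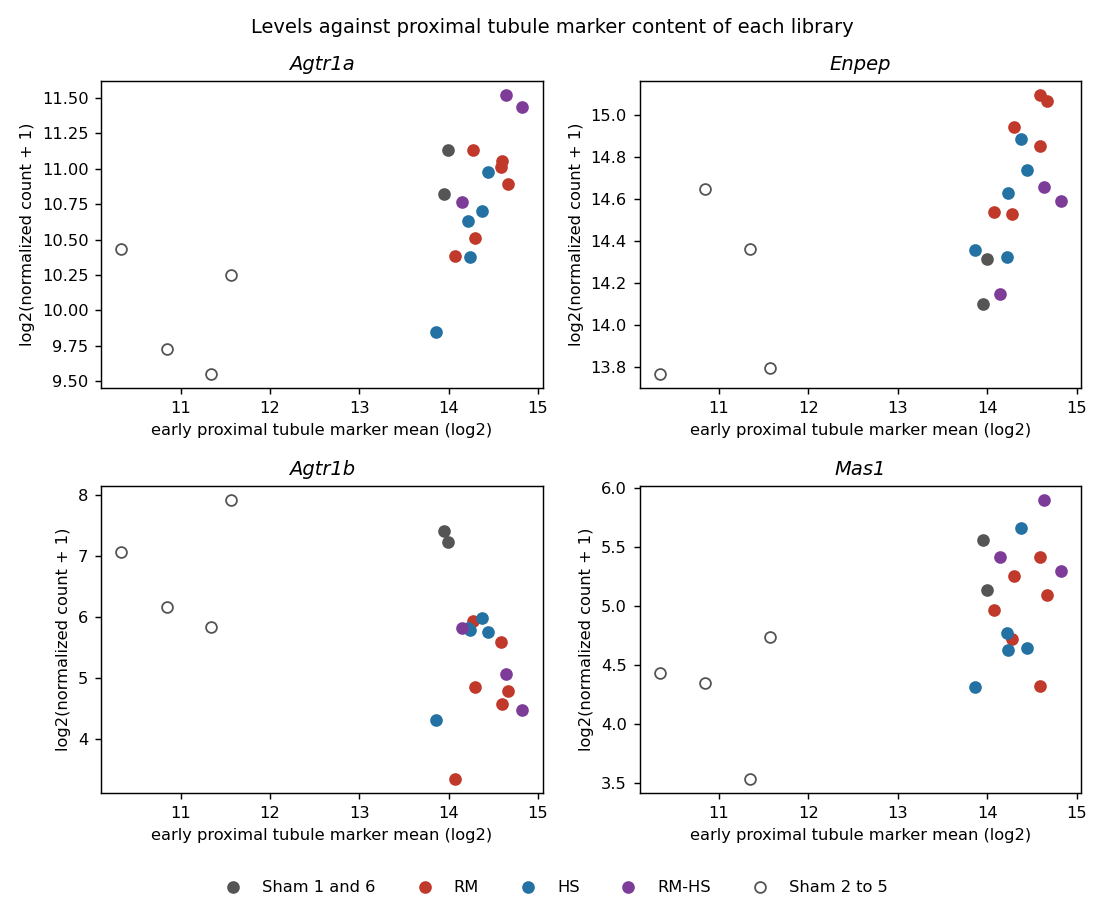
Level of 4 members as log2(normalized count + 1) (vertical axes) against the mean log2 level of 10 early proximal tubule markers (horizontal axes), 1 point per library, coloured by group; open circles are Sham 2 to 5. Sham 2 to 5 lie between 10.3 and 11.6 on the horizontal axis, and all other libraries between 13.9 and 14.8.

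The second type 1 receptor gene, Agtr1b (GSRG0016040, rn6 chr2:105149020-105224295), encodes a closely related receptor. Its normalized counts in Sham were 150 in Sham 1, 170 in Sham 6, and 134, 242, 56.5 and 71.1 in Sham 2, 3, 4 and 5. In RM they ran from 9.11 (RM 3) through 27.3 to 60.3 (RM 1). In HS they were 62.3, 54.4, 18.9, 55.8 and 52.8, and in RM-HS 32.7, 55.9 and 21.4. Sham 4, the lowest Sham library, was the only one that RM 1 and HS 1 exceeded, and all RM-HS libraries lay below every Sham library. Agtr1b fell in all 3 groups, with a log2 change of -2.10 ± 0.43 in RM (adjusted p = 0.00042), -1.41 ± 0.45 in HS (adjusted p = 0.015) and -1.82 ± 0.53 in RM-HS (adjusted p = 0.0091). It also fell against Sham 1 and 6 alone, with changes of -2.48 ± 0.58 (adjusted p = 0.0041), -1.79 ± 0.60 (adjusted p = 0.036) and -2.20 ± 0.65 (adjusted p = 0.020). The HS call was lost without HS 3 (-1.11, adjusted p = 0.053) and the RM-HS call without RM-HS 3 (-1.50, adjusted p = 0.062). The RM call held without each library in turn (-2.32 to -1.80), but among libraries named R, with 1 RM library, the difference was -1.01 (adjusted p = 0.50). With the name letter as a covariate the RM call held and the HS difference was -1.30 (adjusted p = 0.051).

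The coding sequences of the pair of receptor genes are closely alike, so reads could be shared between them, and how the counting treated shared reads is not stated. The counts behind Agtr1b are also small, 9 to 254 per library after the scaling was undone, and 19 of those 20 values were multiples of 3, as were 79.4% of all values from 1 to 30, so their counting error is not known. Of the 8 endothelial markers measured, 3 fell and 1 rose in RM, 6 fell and 1 rose in HS, and 4 fell and 1 rose in RM-HS. Among all rows 53%, 46.4% and 42.3% passed in these comparisons. The median log2 change of the endothelial markers was -0.30 in RM, -0.89 in HS and -0.81 in RM-HS. Their summed count was 10649 to 16174 in Sham, 8431 to 14659 in RM, 7130 to 8634 in HS and 7908 to 9503 in RM-HS. Of the 10 mesangial, smooth muscle and pericyte markers, 3 fell and 2 rose in RM, 2 fell in HS, and 3 fell and 1 rose in RM-HS. Their summed count was 8921 to 14906 in Sham, 8686 to 17118 in RM, 6591 to 11942 in HS and 6934 to 13250 in RM-HS. The rodent adrenal gland also expresses Agtr1b, and 3 of 5 adrenal markers were in the table, with a summed count of 18.1 to 66.8 in Sham and 15.9 to 52.1 in the injured libraries. Of the 2 adrenal markers tested, 1 fell in RM, 1 in HS and 0 in RM-HS, and 0 rose. Against Sham 1 and 6 alone, 0 of the 2 passed in any group. The part of these cell types in the fall of Agtr1b was not tested.

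Mas, the receptor of the shorter peptide of the opposing arm, is encoded by Mas1 (GSRG0000124, rn6 chr1:48077033-48108216). It was detected at a low level, from 10.6 (Sham 4) through 23.2 to 46.3 (Sham 6) in Sham and from 19.0 through 31.8 to 41.8 in RM. The HS libraries had 49.9, 23.8, 18.9, 26.4 and 24.0 and the RM-HS libraries 58.8, 41.9 and 38.5. The RM-HS libraries were among the highest, and Sham 6, RM 4 and HS 1 reached the same range. The RM-HS difference was 0.92 ± 0.40 (adjusted p = 0.069) and did not pass. It passed with array weights (1.08, limma adjusted p = 0.044) and without Sham 6 (1.10, limma adjusted p = 0.027). With Sham 1 and 6 alone it was 0.19 ± 0.44, and the RM and HS differences changed sign, from 0.34 to -0.38 and from 0.18 to -0.54.

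**Figure D3:**
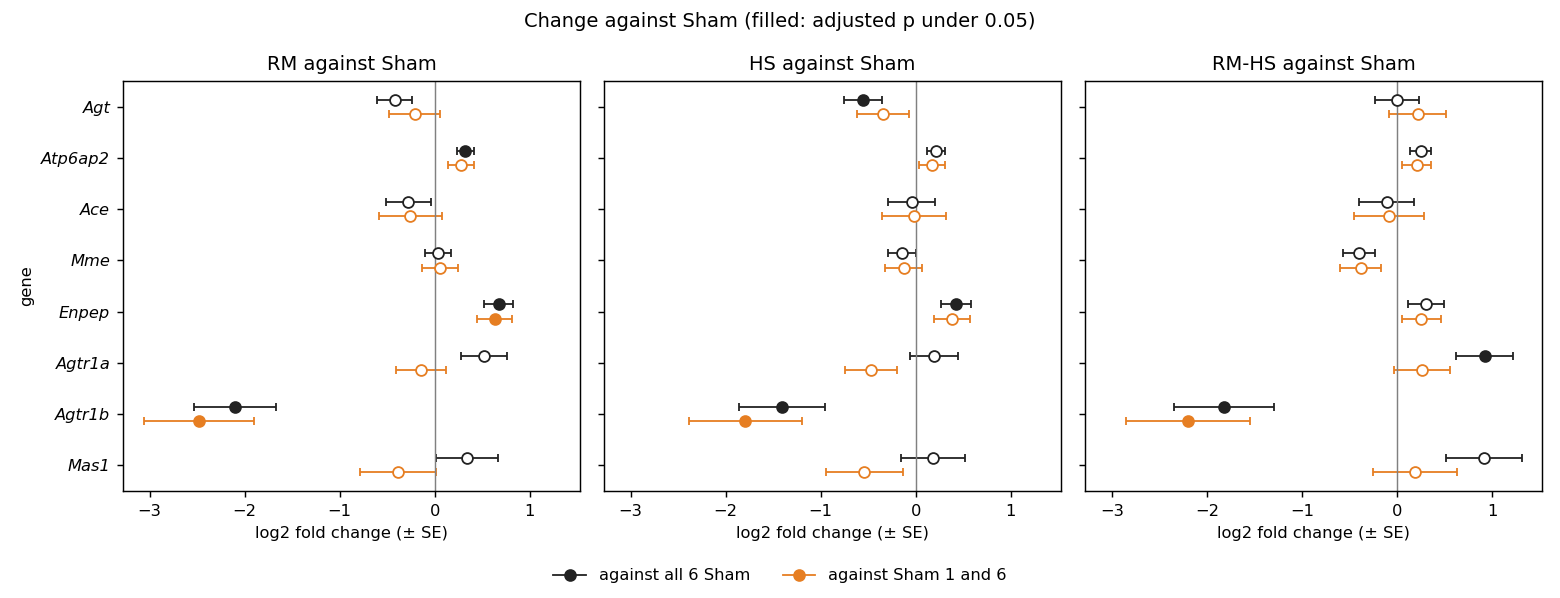
Log2 fold change ± SE (horizontal axes) of each gene (vertical axis) in RM, HS and RM-HS against Sham; black against all 6 Sham libraries, orange against Sham 1 and 6 alone, filled where the adjusted p was under 0.05. Agtr1b is filled with both control sets in all 3 panels, and Enpep with both in RM only.

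The ratio of Agtr1a to Agtr1b was computed within each library, which leaves out the scaling between libraries. It carries no correction for transcript length, so only its differences between groups are read. The log2 ratio was 3.89, 3.36, 2.32, 3.70, 3.55 and 3.41 in Sham 1 to 6. It ran from 5.20 to 7.05 in RM. It was 4.72, 4.58, 5.53, 4.80 and 5.23 in HS and 6.45, 4.94 and 6.95 in RM-HS. Every injured library lay above every Sham library, Sham 1 and 6 included. The mean log2 ratio was higher than in Sham by 2.61 in RM (2-sided exact permutation test, adjusted p = 0.0173 over 12 ratio comparisons, of which 6 are reported), by 1.60 in HS (exact permutation adjusted p = 0.0173) and by 2.74 in RM-HS (exact permutation adjusted p = 0.0445, with an unadjusted p of 0.0238, the smallest this design allows). RM stood above HS by 1.01 (exact permutation adjusted p = 0.0445). On leaving out 1 library, the call of RM-HS against Sham was lost in 9 of 9 cases and that of RM against HS in 9 of 11, while those of RM and HS against Sham were lost in none. With fewer libraries the smallest p possible for RM-HS against Sham is above 0.0238, so its losses do not show dependence on single libraries. That difference stayed at 2.32 to 3.33. RM-HS differed from RM by 0.13 and from HS by 1.14, and neither passed (exact permutation adjusted p = 0.881 and 0.143). The differences from Sham 1 and 6 alone were 2.34, 1.32 and 2.46, at sample numbers too small for the exact test to pass after adjustment.

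**Figure D4:**
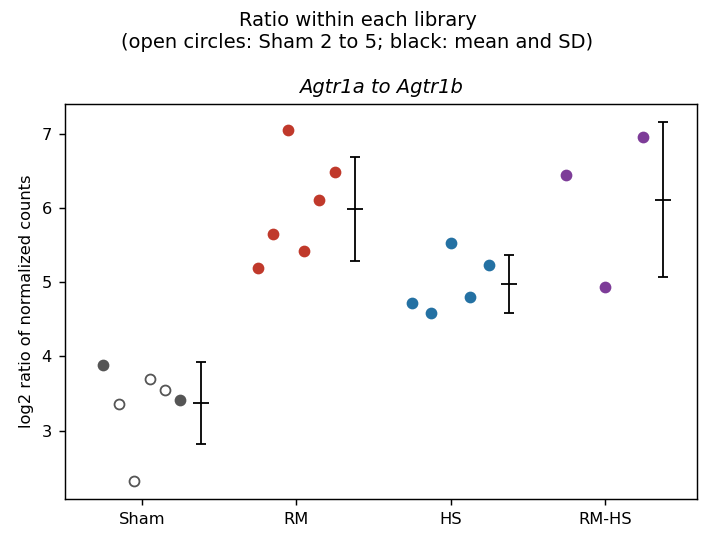
Log2 ratio of normalized counts within each library (vertical axis) for Agtr1a to Agtr1b, by group (horizontal axis); open circles are Sham 2 to 5, black marks the group mean and SD. The highest Sham library is at 3.89 and the lowest injured library at 4.58.

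Among the injury groups no member passed in any of the 3 comparisons. The count was 0 of 8 for RM against HS, where 23.8% of rows passed, 0 for RM-HS against RM, where 1.08% passed, and 0 for RM-HS against HS, where 20.6% passed. By the unadjusted p of limma 0, 1 (Mme) and 2 (Agt and Agtr1a) members were under 0.05, and both edgeR and DESeq2 called 0 members in each of the 3. Groups did not overlap for 0 of 8 members in RM against HS (14.2% of rows), for 1, Mme, in RM-HS against RM (7.76%) and for 0 in RM-HS against HS (24.9%). For Agtr1b the RM minus HS difference was -0.69 ± 0.45, with a 95% interval of -1.63 to 0.26, so the deeper fall in RM was not shown to differ from that in HS. For Agtr1a the RM-HS minus HS difference was 0.73 ± 0.31 (limma adjusted p = 0.095), with an interval of 0.09 to 1.38 before adjustment. It passed when Sham 2 to 5 were left out of the fit (adjusted p = 0.036), with the same fold change and a smaller SE of 0.24.

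The departure from additivity is the change in RM-HS minus the changes in RM and in HS alone, all against Sham. It passed for 2 of 8 members, 1 in each direction, where 31.7% of rows passed (14.9% higher and 16.8% lower). For Agt it was 0.98 ± 0.31 (limma adjusted p = 0.019): the separate labels gave -0.42 and -0.56, and the joint label 0.00. For Enpep it was -0.80 ± 0.25 (adjusted p = 0.020): the separate labels gave 0.67 and 0.42, and the joint label 0.30. Agtr1b had 1.69 ± 0.69 (adjusted p = 0.069), with its joint change of -1.82 no deeper than that of RM alone. With Sham 1 and 6 as controls 1 member, Enpep, passed (-0.75 ± 0.25, adjusted p = 0.045), where 19.8% of rows did, and Agt had 0.77 ± 0.36 (adjusted p = 0.14). The Agt value lost its call without RM-HS 1 (0.76, adjusted p = 0.078) and the Enpep value without RM-HS 2 (-0.64, adjusted p = 0.081). With the name letter as a covariate they were 1.02 (limma adjusted p = 0.17) and -0.68 (limma adjusted p = 0.27). In that fit 206 of all rows were higher and 411 lower, against 2376 and 2678 in the main fit. Among libraries named R, with 1 RM library, the Agt and Enpep values were 1.20 and -0.52.

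Of the other receptor and binding genes, 4 were tested, and 3 rose and 1 fell in RM, 3 rose in HS, and 2 rose and 1 fell in RM-HS. The counts against Sham 1 and 6 alone were 1 lower in RM, 2 higher in HS and 1 lower in RM-HS. Of all tested rows, 53%, 46.4% and 42.3% passed in RM, HS and RM-HS, and 32.9%, 25.7% and 27.2% against Sham 1 and 6. Counts in this and the following gene lists are not read as a response of a list. Agtrap, whose product binds the type 1 receptor and promotes its internalization, fell in RM (-0.68 ± 0.11, adjusted p = 3.1e-05) and in RM-HS (-0.36 ± 0.13, adjusted p = 0.034), and its HS difference was -0.04 ± 0.11. Both falls of Agtrap held against Sham 1 and 6 alone (-0.88 and -0.56, adjusted p = 0.00015 and 0.011). Lnpep, an aminopeptidase that binds angiotensin IV, rose by 0.85 ± 0.21 in RM and by 1.25 ± 0.22 in HS (adjusted p = 0.0025 and 0.00016), and in HS also against Sham 1 and 6 (0.89, adjusted p = 0.014). Igf2r and M6pr, mannose 6-phosphate receptors, rose in all 3 groups, Igf2r most in HS (1.06 ± 0.16, adjusted p = 2.6e-05) and M6pr by 0.32 to 0.35, and of these only the HS rise of Igf2r passed against Sham 1 and 6 (0.53, adjusted p = 0.015). The type 2 receptor gene Agtr2 was at 0 in every library other than Sham 3 (1.91) and Sham 5 (4.31), and Mrgprd was at 0 throughout.

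Of 10 other angiotensin-processing peptidases tested, 2 rose and 2 fell in RM, 2 rose and 4 fell in HS, and 2 rose and 2 fell in RM-HS. The share of all rows that passed was 53%, 46.4% and 42.3%. Ctsd, an aspartic protease of the lysosome, rose by 1.05 ± 0.13 in RM, 0.58 ± 0.14 in HS and 1.11 ± 0.16 in RM-HS (adjusted p = 1.6e-06, 0.0015 and 1.9e-05). Rnpep, aminopeptidase B, fell in all 3 (-0.92, -0.69 and -0.73, adjusted p = 1.9e-07, 1.9e-05 and 5.7e-05), with no overlap with Sham in any group. Prep, a cytosolic peptidase that can cut angiotensins after proline, fell in HS (-1.13 ± 0.15, adjusted p = 1.1e-05) and in RM-HS (-0.81 ± 0.18, adjusted p = 0.0013) but differed by 0.06 ± 0.15 in RM, and RM exceeded HS by 1.19 ± 0.15 (adjusted p = 1.8e-05). Nln, neurolysin, rose by 0.46, 0.63 and 0.38. Ctsd, Rnpep and Prep passed in the same groups with Sham 1 and 6 as controls, and Nln only in HS.

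Of 14 genes of type 1 receptor signalling and feedback, 6 rose and 1 fell in RM, 3 rose and 1 fell in HS, and 3 rose and 2 fell in RM-HS. When only Sham 1 and 6 served as controls, 2 rose in each group, and 1, 1 and 2 fell. Among all rows 53%, 46.4% and 42.3% passed against all Sham libraries, and 32.9%, 25.7% and 27.2% against Sham 1 and 6. Gnaq, the G protein subunit that couples the receptor to phospholipase C, rose by 0.83 ± 0.09 in HS (adjusted p = 7.2e-07) and by 0.32 ± 0.08 in RM. Its RM counts ran from 1972 to 2139, a range that held Sham 1 (2080) and lay above Sham 6 (1575). Rgs2, which switches off signalling of that G protein class, rose by 1.37 ± 0.24 in RM (adjusted p = 7e-05) and by 0.96 ± 0.29 in RM-HS (adjusted p = 0.012), and its HS difference was 0.18 ± 0.25. RM exceeded HS for Rgs2 by 1.19 ± 0.25 (adjusted p = 0.0016), and HS exceeded RM for Gnaq (-0.52 ± 0.09, adjusted p = 0.00025). Nox4, an oxidase of the proximal tubule, rose by 2.51, 1.90 and 2.57 against all Sham libraries and differed by 0.73, 0.12 and 0.79 from Sham 1 and 6 (adjusted p = 0.035, 0.77 and 0.047). Arrb1, a receptor arrestin, fell in RM-HS (-0.77 ± 0.14, adjusted p = 0.00021).

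Of 13 juxtaglomerular genes, 5 rose and 4 fell in RM, 3 rose and 5 fell in HS, and 3 rose and 4 fell in RM-HS. Of the same 13, 1 rose and 3 fell in RM, 4 fell in HS and 4 fell in RM-HS against Sham 1 and 6 alone. Over all rows the shares were 53%, 46.4% and 42.3% against all Sham libraries, and 32.9%, 25.7% and 27.2% against Sham 1 and 6. Adcy6, an adenylyl cyclase, fell in RM, HS and RM-HS (-1.15, -0.81 and -1.41, adjusted p = 1.5e-07, 3e-05 and 5.1e-07). So did Adrb1, the beta-1 adrenergic receptor (-1.25, -0.98 and -1.55, adjusted p = 0.0001, 0.0019 and 0.00017), and Casr, the calcium-sensing receptor (-3.17, -2.44 and -3.63, adjusted p = 3.2e-06, 0.00014 and 1.6e-05). The 3 genes passed in the same groups against Sham 1 and 6 alone, except Adrb1 in HS (-0.97, adjusted p = 0.051). Casr is also a gene of the thick ascending limb, and of 6 markers of that segment 5 fell in RM, 6 in HS and 4 in RM-HS. Gja4, a connexin of vessels and juxtaglomerular cells, fell in HS (-1.47 ± 0.22, adjusted p = 2.2e-05) and differed by 0.19 ± 0.21 in RM and -0.11 ± 0.25 in RM-HS. Its level in HS was 102 ± 20.1 (SD, n = 5) against 283 ± 51.3 (n = 6) in Sham.

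A list of other brush border peptidases also held the aminoacylases Acy1 and Acy3, which are not brush border peptidases. Of its 8 tested genes, 2 rose and 4 fell in RM, 4 fell in HS, and 1 rose and 3 fell in RM-HS. Acy1, Ggt1, Acy3 and Mep1b fell in HS (-0.66, -0.60, -0.93 and -0.84). Only the HS comparison had any, 2 lower, against Sham 1 and 6. Of 8 aldosterone target and receptor genes, 2 rose and 4 fell in each injury group, and 2 rose and 2 fell in each with Sham 1 and 6. For both lists, the shares over all rows were 53%, 46.4% and 42.3%, and 32.9%, 25.7% and 27.2% with Sham 1 and 6. Sgk1, a kinase that keeps the epithelial sodium channel at the membrane, rose by 1.43, 2.09 and 1.74. The mineralocorticoid receptor gene Nr3c2 fell in all 3 (-1.40, -1.39 and -0.91), and so did Hsd11b2, which shields that receptor from glucocorticoids (-1.90, -1.39 and -1.66). Scnn1b, a channel subunit, fell against all Sham libraries (-0.68, -0.88 and -0.64) and passed in no group against Sham 1 and 6. All 7 principal cell markers, of which Scnn1b is 1, fell in each group against all Sham libraries. Against Sham 1 and 6 alone, 4 of the 7 fell in RM, 1 in HS and 3 in RM-HS. The part of principal cell content in the Nr3c2, Hsd11b2 and Scnn1b values was not tested.

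The genes whose log2 levels were most alike to each member over the 20 libraries were found by Pearson r over all tested rows, as a description of libraries that share group, tissue content and scaling. For Agtr1b they were Rcsd1 (r = 0.91), Cavin2 (0.86) and C1qtnf2 (0.86), and r with the group means removed was 0.87, 0.77 and 0.62. For Agtr1a they were Rab2b (0.87), Zmat4 (0.86) and Cyp2e1 (0.85). For Enpep they were Nhlrc2, Asah2 and Reep3 (each 0.85), and for Atp6ap2 they were Zfand6 (0.89), Selenot (0.86) and Klhdc10 (0.86). Agt was nearest to Defb42 (0.79), Nipsnap3b (0.78) and Arg1 (0.78), and Mme to Nt5dc1 (0.81), Ak4 (0.80) and Slco1a1 (0.80). Mas1 was nearest to Fam221a (0.82), Gltpd2 (0.77) and Tmem106a (0.76), and Ace to Mzt2b (0.75), Pm20d1 (0.71) and Synpo2 (0.68). No gene appeared beside more than 1 member. Among the members themselves the highest r were 0.69 between Agtr1a and Mas1 and 0.64 between Atp6ap2 and Enpep, the lowest was -0.63 between Agtr1b and Enpep, and that of Agtr1a with Agtr1b was -0.09.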

How the data were processed

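Stranded mRNA of 20 rat kidney samples was sequenced from both ends, per the labels' protocols. The authors aligned reads with STAR 2.7.5a to rn6, counted them with featureCounts of Subread 1.5.0 and normalized them with DESeq2, per the submitters' processing notes. The deposited signal is thus a normalized read count per gene. Counts were recovered by undoing each library's size factor, and 100% of values were whole within 0.1. Recovered counts from 1 to 30 were multiples of 3 in 79.4% of values, for a reason not given in the sources used here, so no counting error or depth limit is drawn from them.

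Libraries were grouped by their labels. Replicate numbers follow accession order and pair nothing. By the design text RM has 5 of 19 libraries, by the labels 6 of 20, and all 20 were used. Rows that reached 10 in 3 or more libraries were tested with limma 3.58.1 (R 4.3.3) on log2(value + 1), with a mean-variance trend and Benjamini-Hochberg adjustment over 15954 rows. Ratios within a library, with a pseudocount of 1, were compared by 2-sided exact permutation tests, adjusted over 12, of which 6 are reported. The procedure was tested on simulated data. Alternatives were other pseudocounts (0.5 and 8), no filter and a filter of 50, trimmed mean of M values and upper quartile scaling, only the groups compared, the letter (R or S) that begins a library's name and the early proximal tubule marker mean as covariates, only libraries named R, weights per library, the count tools edgeR 4.0.16 and DESeq2 1.42.0 on recovered counts, Sham 1 and 6 alone, and leaving out each library. Both count tools were also run on counts divided by 3, an alternative chosen after seeing the data.

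The members and gene lists were chosen with earlier results of these data known. All members were named, with up to 4 genes per pathway list by smallest adjusted p against Sham and the 3 most similar rows per member by Pearson r. Liver, adrenal, mesangial and other marker genes were used to describe tissue content, and Agtr2 and Mrgprd were named after their values were seen. Some genes of the pathway lists, and a ratio that needs one of them, are not reported here.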

Additional observations from a re-analysis of the deposited data

Results flagged for a closer look

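Of 27 groups of 4 to 10 libraries examined, 6 held a library that stood far from the rest of its group, where chance alone gives about 1 in 20. RM 6 had an Agt level of 2870, and the next RM library had 1907. RM 2 had an Atp6ap2 level of 4742, below 5539 in the next. HS 3 was low for 2 genes, with an Agtr1b level of 18.9 against 52.8 in the next and an Atp6ap2 level of 3933 against 5301. HS 3 also had the lowest mitochondrial share of all libraries, 42.2%, with Sham 2 close to it at 42.4%. HS 1 had a Mas1 level of 49.9, and the next HS library had 26.4. Sham 3 had the lowest log2 ratio of Agtr1a to Agtr1b, 2.32, against 3.36 in the next Sham library. In Sham 3 the Agtr1b level was the highest of all libraries, 242.

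The effect of one label differed with the other for 2 genes, by the test of the departure from additivity. It was 0.98 for Agt (limma adjusted p = 0.019) and -0.80 for Enpep (adjusted p = 0.020). Each rests on 3 RM-HS libraries. The joint label has libraries named R only, while 5 of 6 RM libraries are named S, and RM and that naming largely coincide. With the name letter as a covariate the departures were 1.02 for Agt and -0.68 for Enpep, and neither passed (limma adjusted p = 0.17 and 0.27). In that fit 206 of all rows were higher and 411 lower, against 2376 and 2678 in the main fit. Among libraries named R, with 1 RM library, the departures were 1.20 for Agt and -0.52 for Enpep.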

How the results depend on the processing

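No paired analysis was possible because the labels and columns carry no replicate numbers. No member that passed with all Sham libraries in the limma fit reversed its direction in any alternative run. Agtr1a in RM, which did not pass there, passed as higher with array weights (0.69) and without Sham 1 or Sham 6 (0.68 and 0.62) and reversed in 2 other fits. Against Sham, calls were also gained under some alternatives by Agt in RM (lower), Atp6ap2 in HS and RM-HS (higher), and Mme (lower) and Mas1 (higher) in RM-HS. The number of members that passed against Sham in RM was 3 and became 1 with the name letter as covariate and 1 with the early proximal tubule covariate. It was 3 to 5 without 1 library (5 without Sham 1). Of all 15954 rows, 4178 were higher and 4277 lower in the main fit. With the name letter 2425 were higher and 2126 lower, and with the tubule covariate 2923 and 2506. In HS the number of members was 3 and became 0 with the name letter, 1 with the tubule covariate and 1 among libraries named R. It was also 1 with Sham 1 and 6 alone and 1 to 4 without 1 library (1 without HS 2 or HS 5). In the main fit 3712 rows were higher and 3698 lower, and with the name letter 3089 and 2879. The tubule covariate gave 2615 and 2133, libraries named R 2674 and 2607, and Sham 1 and 6 alone 2337 and 1768. In RM-HS the number of members was 2 and became 1 in the fit of only the groups compared, 1 with the tubule covariate and 1 with Sham 1 and 6 alone. It was 0 to 4 without 1 library (0 without RM-HS 3, 1 without RM-HS 1, 4 without Sham 6 or HS 3). HS 3 enters this comparison only through the spread shared by the 4 groups. In the main fit 3395 rows were higher and 3354 lower, and with only the groups compared 2801 and 2931. The tubule covariate gave 2524 and 2091, and Sham 1 and 6 alone 2392 and 1955. For RM-HS against HS the number of members was 0 and became 1 with Sham 1 and 6 alone and 0 to 1 without 1 library (1 without HS 3). In the main fit 1599 rows were higher and 1688 lower, and with Sham 1 and 6 alone 1733 and 1743. For the departure from additivity the number of members was 2 and became 0 with the name letter and 0 with the tubule covariate. It was 1 with Sham 1 and 6 alone and 1 to 3 without 1 library (1 without RM-HS 1 or RM-HS 2). In the main fit 2376 rows were higher and 2678 lower, and with the name letter only 206 and 411. The tubule covariate gave 1740 and 2159, and Sham 1 and 6 alone 1309 and 1842. Libraries named R hold 1 RM library, so no count is given for them in RM or in additivity. Enpep in RM lost its call with the name letter (0.59) and among libraries named R (0.37). The Agtr1b fall in RM lost its call among libraries named R (-1.01, adjusted p = 0.50), and its fall in HS with the name letter (-1.30, adjusted p = 0.051). The causes were not tested.

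With Sham 1 and 6 alone the ratio differences from Sham were 2.34, 1.32 and 2.46 for Agtr1a to Agtr1b in RM, HS and RM-HS. They missed the threshold, but at these sample numbers the exact test cannot pass. The miss is therefore not read as dependence on the controls. Without 1 library, the call for Agtr1a to Agtr1b was lost in 9 of 9 cases in RM-HS against Sham (2.32 to 3.33) and in 9 of 11 in RM against HS (0.80 to 1.17 over all 11). The call of RM against HS was kept without RM 1 or HS 3. Leaving out a library also raises the smallest p that the exact test can give.

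Differences that had not passed with all Sham libraries turned in sign as follows. Against Sham 1 and 6, Agtr1a turned to -0.14 in RM and -0.47 in HS and Mas1 to -0.38 and -0.54. With the tubule covariate Agtr1a turned to -0.31 and -0.57, Mas1 to -0.47 and -0.56, Mme to -0.037 in RM, and Ace to 0.10 in HS and 0.05 in RM-HS. With the name letter Ace turned to 0.12 in RM, 0.15 in HS, -0.23 in RM-HS against RM and -0.38 in additivity. Among libraries named R, Ace turned to 0.53 in RM, 0.015 in HS, 0.52 in RM against HS, -0.64 in RM-HS against RM and -0.65 in additivity, Agtr1a to -0.0079 in HS, and, in RM against HS, Agt to -0.24, Agtr1b to 0.57, Enpep to -0.10 and Mas1 to -0.15, with Agtr1b at -0.81 in RM-HS against RM. With upper quartile scaling Mme turned to -0.10 in RM and Agt to -0.13 in RM-HS. With array weights Agt turned to -0.026 and Ace to 0.012 in RM-HS, and Ace to 0.062 in RM-HS against HS. With edgeR Ace turned to 0.0057 in HS, and to 0.0089 on counts divided by 3. Without 1 library, the range took in both signs for Mme in RM (-0.011 to 0.090), Ace in HS (-0.22 to 0.089), Mas1 in HS (-0.037 to 0.37), Agt and Ace in RM-HS (-0.22 to 0.21 and -0.34 to 0.17), Ace, Agtr1b and Atp6ap2 in RM-HS against RM (-0.057 to 0.45, -0.070 to 0.60 and -0.19 to 0.0043), Ace, Enpep and Atp6ap2 in RM-HS against HS (-0.29 to 0.21, -0.22 to 0.039 and -0.079 to 0.11), Ace in additivity (-0.016 to 0.49), and the ratio of Agtr1a to Agtr1b in RM-HS against RM (-0.29 to 0.72).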
